A study of Mus musculus with 6 samples.

Results

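Interferon response genes were followed in IgM+ B cells sorted from mouse bone marrow, in genotypes that lack one or the other of 2 zinc fingers of Ikaros. The group holds 32 gene names, chosen as known interferon-stimulated genes and their regulators, of 22098 gene names in the deposited table. Each is represented by its transcript with the highest mean, and 31 of the 32 were among the 10322 names tested. There were 2 libraries from ZnF4 mutant mice (Ikaros_ZnF4-/-, lacking finger 4), 2 from ZnF1 mutant mice (Ikaros_ZnF1-/-, lacking finger 1) and 2 from wild-type mice. The mice were C57BL/6 and 6 weeks of age, and the RNA was enriched for poly(A). The labels name no Cre driver or transgene, and they number the libraries without saying that each came from a different animal. P-values therefore measure only the spread between these samples. That spread may be technical for the wild-type pair, whereas in either mutant replicates 1 and 2 differed in sex and so came from separate mice. Ikaros, the product of Ikzf1, is a DNA-binding regulator of lymphocyte development. The comparisons address whether the 2 fingers matter for different genes.

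Type I interferons bind a receptor of the chains Ifnar1 and Ifnar2, whose kinases Jak1 and Tyk2 activate Stat2. Stat2 and Irf9 belong to a complex that binds the interferon-stimulated response element in the promoters of many antiviral genes. Irf7 is both a target of this complex and an activator of interferon genes, and a low level of signalling keeps part of the programme on in lymphocytes without infection.

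The libraries had the profile of B cells, and some also held RNA of other cells or differed in sex. The 6 B cell markers summed to between 4482 and 5398 RPKM (reads scaled to transcript length and library total) per library, and the 5 T cell markers to between 13.8 and 21.2. Lck, at 11.2 to 19.9 RPKM, made most of the T cell sum. Cd8a was at 1.2 and 1.5 RPKM in the ZnF1 mutant, against 0.1 to 0.2 in the other libraries. The Cd3 genes were at most at 0.8 RPKM. The 13 granulocyte and monocyte markers summed to 1859 and 2042 RPKM in ZnF4 replicates 1 and 2, 1496 and 8008 in ZnF1 replicates 1 and 2, and 486 and 759 in wild-type replicates 1 and 2. ZnF1 replicate 2 also held the most erythroid RNA, with 509 RPKM over 6 markers against 78.2 to 198 elsewhere. Igj, the antibody J chain gene of plasma cells, was at 414 RPKM in wild-type replicate 1 and 1.1 in wild-type replicate 2. Replicate 2 of both mutants was male, with Xist at 0 and Ddx3y, a Y-linked gene, at 16.6 RPKM (ZnF4) and 20.4 RPKM (ZnF1), and the other 4 libraries were female. Library medians over the tested genes, on the log2 scale, ran from 3.62 to 3.68. Ikzf1 itself had 287.3 and 244 RPKM in the ZnF4 mutant, 201.1 and 168.4 in the ZnF1 mutant, against 176.5 and 178.6 in wild type, which averages over the transcript and cannot show the loss of 1 finger.

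Promoters are shown for Irf7, Ifit3 and Oasl1, which passed the test in the ZnF4 mutant against wild type, and for Ifit1 and Bst2, which narrowly missed it. No promoter was found for Rtp4, which also passed, or for Oas2, which also narrowly missed. Those of Isg15, a much-used interferon reporter, and of the receptor gene Ifnar1 are shown for contrast. Each runs 5′ to 3′ on the strand of the gene, from 250 bases before to 50 bases after the start, from RefSeq on GRCm38.p6. That build is not the mm9 build of the expression table, so positions are not comparable with it. Capitals mark matches to GAAANNGAAA, a form of the interferon-stimulated response element, on either strand, where the other strand reads TTTCNNTTTC.
Ifit3 (chr19:34583279-34583578, plus strand): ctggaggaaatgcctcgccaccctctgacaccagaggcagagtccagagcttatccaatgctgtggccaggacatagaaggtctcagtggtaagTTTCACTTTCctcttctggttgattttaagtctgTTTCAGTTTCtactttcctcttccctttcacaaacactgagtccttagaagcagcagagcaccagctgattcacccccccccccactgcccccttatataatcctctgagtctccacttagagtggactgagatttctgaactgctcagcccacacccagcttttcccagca
Ifit1 (chr19:34640639-34640938, plus strand): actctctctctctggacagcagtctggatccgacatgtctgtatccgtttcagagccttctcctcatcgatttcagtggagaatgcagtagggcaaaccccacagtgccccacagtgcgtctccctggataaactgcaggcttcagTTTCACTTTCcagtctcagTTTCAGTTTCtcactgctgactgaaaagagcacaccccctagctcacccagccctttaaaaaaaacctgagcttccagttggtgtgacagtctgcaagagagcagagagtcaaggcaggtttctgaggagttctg
Bst2 (chr8:71537423-71537722, minus strand): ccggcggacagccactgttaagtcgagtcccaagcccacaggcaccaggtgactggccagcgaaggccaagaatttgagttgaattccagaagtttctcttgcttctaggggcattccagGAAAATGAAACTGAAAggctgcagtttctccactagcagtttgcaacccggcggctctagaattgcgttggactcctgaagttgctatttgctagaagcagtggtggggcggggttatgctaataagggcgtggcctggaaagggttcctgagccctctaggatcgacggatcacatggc
Isg15 (chr4:156200769-156201068, minus strand): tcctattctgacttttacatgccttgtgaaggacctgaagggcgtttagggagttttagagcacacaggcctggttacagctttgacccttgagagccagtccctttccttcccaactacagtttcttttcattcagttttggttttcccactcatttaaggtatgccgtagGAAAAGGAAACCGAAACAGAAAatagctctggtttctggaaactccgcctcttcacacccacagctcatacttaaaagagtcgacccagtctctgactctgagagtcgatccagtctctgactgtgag
Irf7 (chr7:141266375-141266674, minus strand): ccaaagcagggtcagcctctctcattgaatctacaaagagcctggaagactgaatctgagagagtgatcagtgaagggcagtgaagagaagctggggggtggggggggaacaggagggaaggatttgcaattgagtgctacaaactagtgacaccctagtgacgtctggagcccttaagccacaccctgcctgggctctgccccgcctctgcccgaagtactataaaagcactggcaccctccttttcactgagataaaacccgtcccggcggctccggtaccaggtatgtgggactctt
Oasl1 (chr5:114922990-114923289, plus strand): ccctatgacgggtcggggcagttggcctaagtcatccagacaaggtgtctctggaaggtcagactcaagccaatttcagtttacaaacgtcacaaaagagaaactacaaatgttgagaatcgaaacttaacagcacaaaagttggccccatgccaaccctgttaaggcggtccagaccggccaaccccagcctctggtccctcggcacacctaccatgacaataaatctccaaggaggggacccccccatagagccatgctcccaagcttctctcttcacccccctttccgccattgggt
Ifnar1 (chr16:91484965-91485264, plus strand): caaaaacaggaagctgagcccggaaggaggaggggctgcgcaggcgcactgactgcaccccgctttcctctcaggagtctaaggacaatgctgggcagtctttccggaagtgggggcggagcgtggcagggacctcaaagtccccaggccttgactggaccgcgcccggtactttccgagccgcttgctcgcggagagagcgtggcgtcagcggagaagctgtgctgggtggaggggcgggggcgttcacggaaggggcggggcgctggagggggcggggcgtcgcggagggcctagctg

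Windows were found for 22 of the 32 genes, and 11 of the 22 held GAAANNGAAA, against 3.99% of all 27025 genes with a window. Ifit1 and Ifit3, which lie close together on chromosome 19, each held 2 separate matches on the minus strand of the gene, between 156 and 76 bases before the start. Bst2 held 2 overlapping matches and Isg15 a run of 3. Cxcl10, Ddx58, Ifih1, Oas3, Rsad2 and Stat2 held 1 match each and Oas1a an overlapping pair. The exact letters were not in the windows of Irf7, Oasl1, Ifnar1, Ifnar2, Ifi35, Ifi44, Ifit2, Irf1, Irf9, Oasl2 or Xaf1, which says nothing of elements that differ from them or lie elsewhere. TGGGAA, which contains the core that Ikaros binds, was in the windows of 7 of 22 genes (31.8%), against 28.3% of all genes, and it did not overlap the other motif in any of them. A match describes letters and is not evidence of binding.

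Most interferon response genes had their lowest values in the ZnF4 mutant, and 4 passed the test. Irf7, Ifit3, Oasl1 and Rtp4 fell against wild type, to between 7.14% and 28.7% of the wild-type mean, and none rose. That is 4 of 31 tested genes by limma on log2(RPKM + 0.5) at an adjusted p under 0.05, where 1.41% of all tested genes were called lower and 1.78% higher. The median log2 fold change of the 31 genes was -0.73, against -0.02 over all tested genes, and 29 of the 31 were negative. In 25 of 31 both ZnF4 libraries lay below both wild-type libraries, as 27.2% of all tested genes did, and in 0 of 31 above both, as 23.1% did. In 24 of 31 they also lay below both ZnF1 libraries, that is, below all 4 others, as 15.7% of all tested genes did. In bulk RNA, fewer cells that express a gene and less RNA per cell cannot be told apart.

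The number called rested on single libraries. Leaving out ZnF4 replicate 1 gave 0 calls by limma (13 at an unadjusted p under 0.05), as did leaving out ZnF4 replicate 2 (16). It was 0 without replicate 2 of wild type (11) and 1 without its replicate 1. It was 8 without ZnF1 replicate 1 and 8 without ZnF1 replicate 2, where Ifit1, Oas2, Bst2 and Zbp1 joined the 4. Fitting sex as a further term left 2, Irf7 and Oasl1. Without a filter on low values it was 0 (16 at an unadjusted p under 0.05). The median fold change stayed negative in each of these fits, between -0.93 and -0.37. Over all tested genes the number called fell and rose in the same fits. It was 330 in the main fit, 171 with a term for sex and 269 without a filter, of which 47 were among the 330. Without a filter the count thus fell less over all tested genes than among the interferon response genes. The causes of these shifts were not tested.

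**Figure D1:**
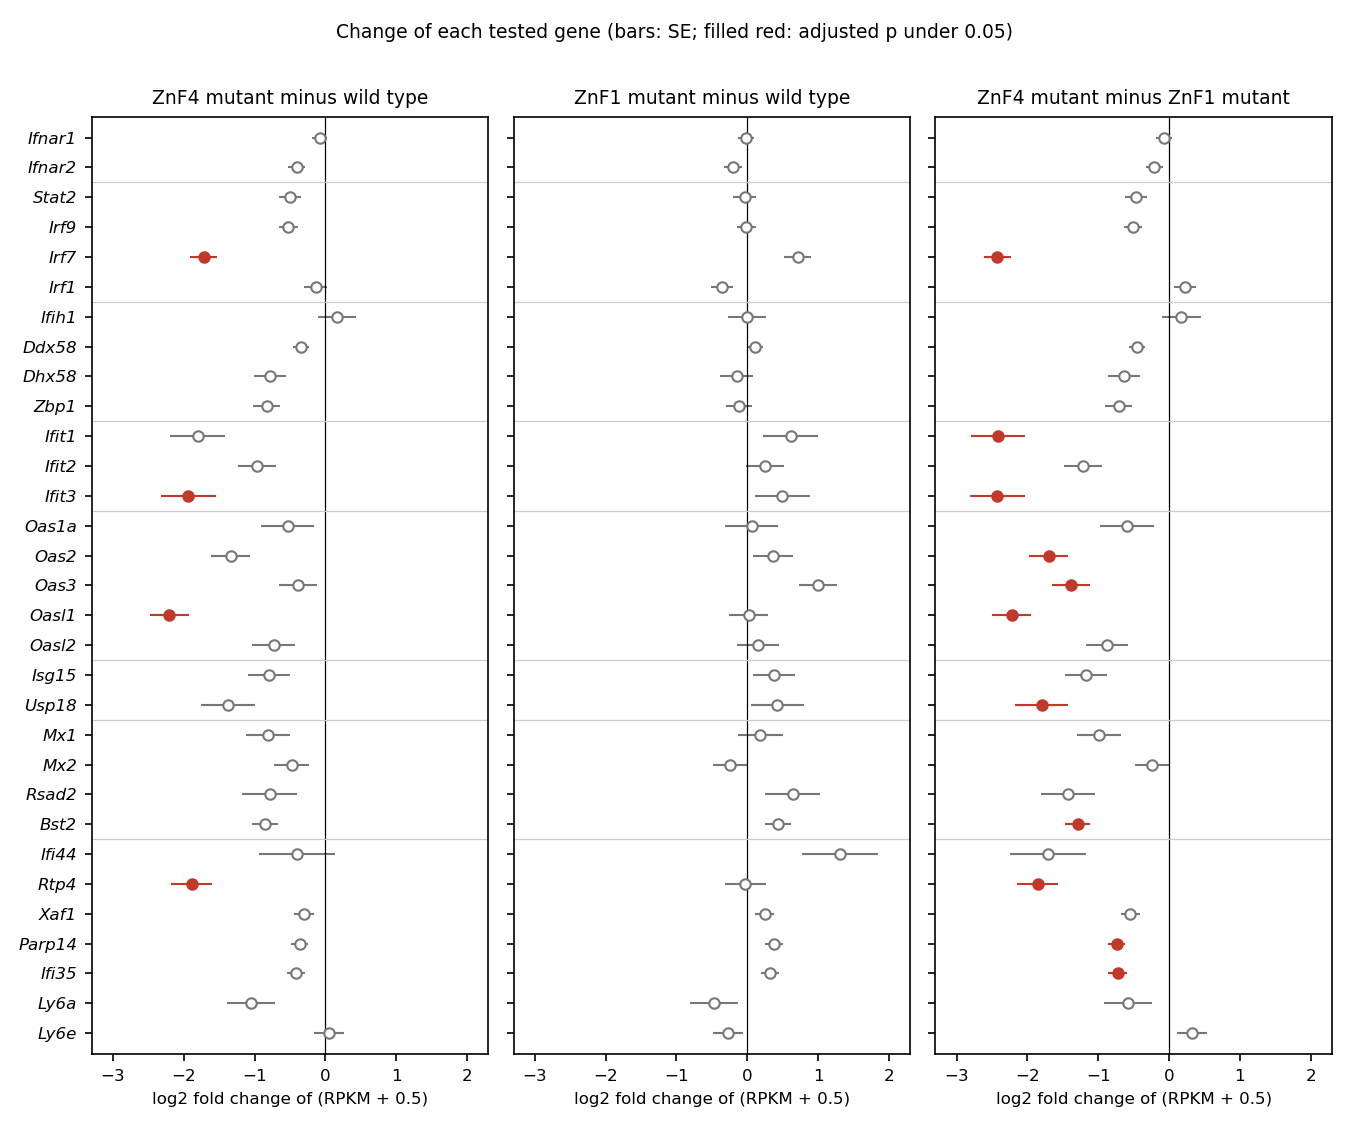
Log2 fold change of (RPKM + 0.5) of the 31 tested genes in 3 comparisons, with bars for the SE and filled red points for an adjusted p under 0.05. The ZnF4 mutant is left of 0 for 29 genes against wild type and for 28 against the ZnF1 mutant, and the ZnF1 mutant against wild type has no filled point.

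Neither receptor gene passed in any comparison. Ifnar1 had 28.2 and 28.2 RPKM in the ZnF4 mutant, 28.6 and 30.6 in the ZnF1 mutant, against 29.6 and 30.1 in wild type. Its ZnF4 libraries were the lowest by a narrow margin, and the log2 fold change against wild type was -0.08 (SE 0.11, adjusted p = 0.764). Ifnar2 had 17.7 and 18.0 RPKM in the ZnF4 mutant, 21.8 and 19.6 in the ZnF1 mutant, against 22.8 and 24.9 in wild type. The 3 genotypes did not overlap, but the ZnF4 difference of -0.41 did not pass (adjusted p = 0.141). The second Ifnar2 transcript, of 3054 bases against 1176 for the first, had the same low pair, at 12.3 and 14.2 RPKM in the ZnF4 mutant, 15.2 and 17.1 in the ZnF1 mutant, against 16.0 and 17.5 in wild type.

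Of the 4 transcription factors, Irf7 fell in the ZnF4 mutant. Irf7 had 6.6 and 7.1 RPKM in the ZnF4 mutant, 45.1 and 33.8 in the ZnF1 mutant, against 20.4 and 27.4 in wild type. No 2 genotypes overlapped: the ZnF4 libraries were lowest, the ZnF1 libraries highest and wild type lay between. Irf7 fell by 1.72 on the log2 scale in the ZnF4 mutant against wild type (SE 0.19, adjusted p = 0.00656), and the ZnF1 difference of 0.71 did not pass (adjusted p = 0.215). The fall was not called when any one of the ZnF4 or wild-type libraries was left out (adjusted p between 0.0589 and 0.128), and the fold change lay between -1.93 and -1.51 whichever library was left out.

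The factors that act directly behind the receptor, Stat2 and Irf9, did not pass. Stat2 had 22.9 and 22.5 RPKM in the ZnF4 mutant, 30.4 and 32.7 in the ZnF1 mutant, against 27.9 and 37.6 in wild type. Irf9, the DNA-binding subunit beside Stat2, had 45.4 and 48.1 RPKM in the ZnF4 mutant, 68.5 and 64.9 in the ZnF1 mutant, against 61.5 and 73.7 in wild type. Both were lowest in the ZnF4 libraries with no overlap, and neither passed (log2 fold changes against wild type of -0.50 and -0.52, adjusted p = 0.154 and 0.0924). Irf1, a factor better known from the response to interferon gamma, had 38.5 and 42.6 RPKM in the ZnF4 mutant, 36.5 and 33.0 in the ZnF1 mutant, against 38.8 and 51.2 in wild type. Its ZnF4 and wild-type libraries overlapped, with a log2 fold change of -0.14 (adjusted p = 0.710).

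**Figure D2:**
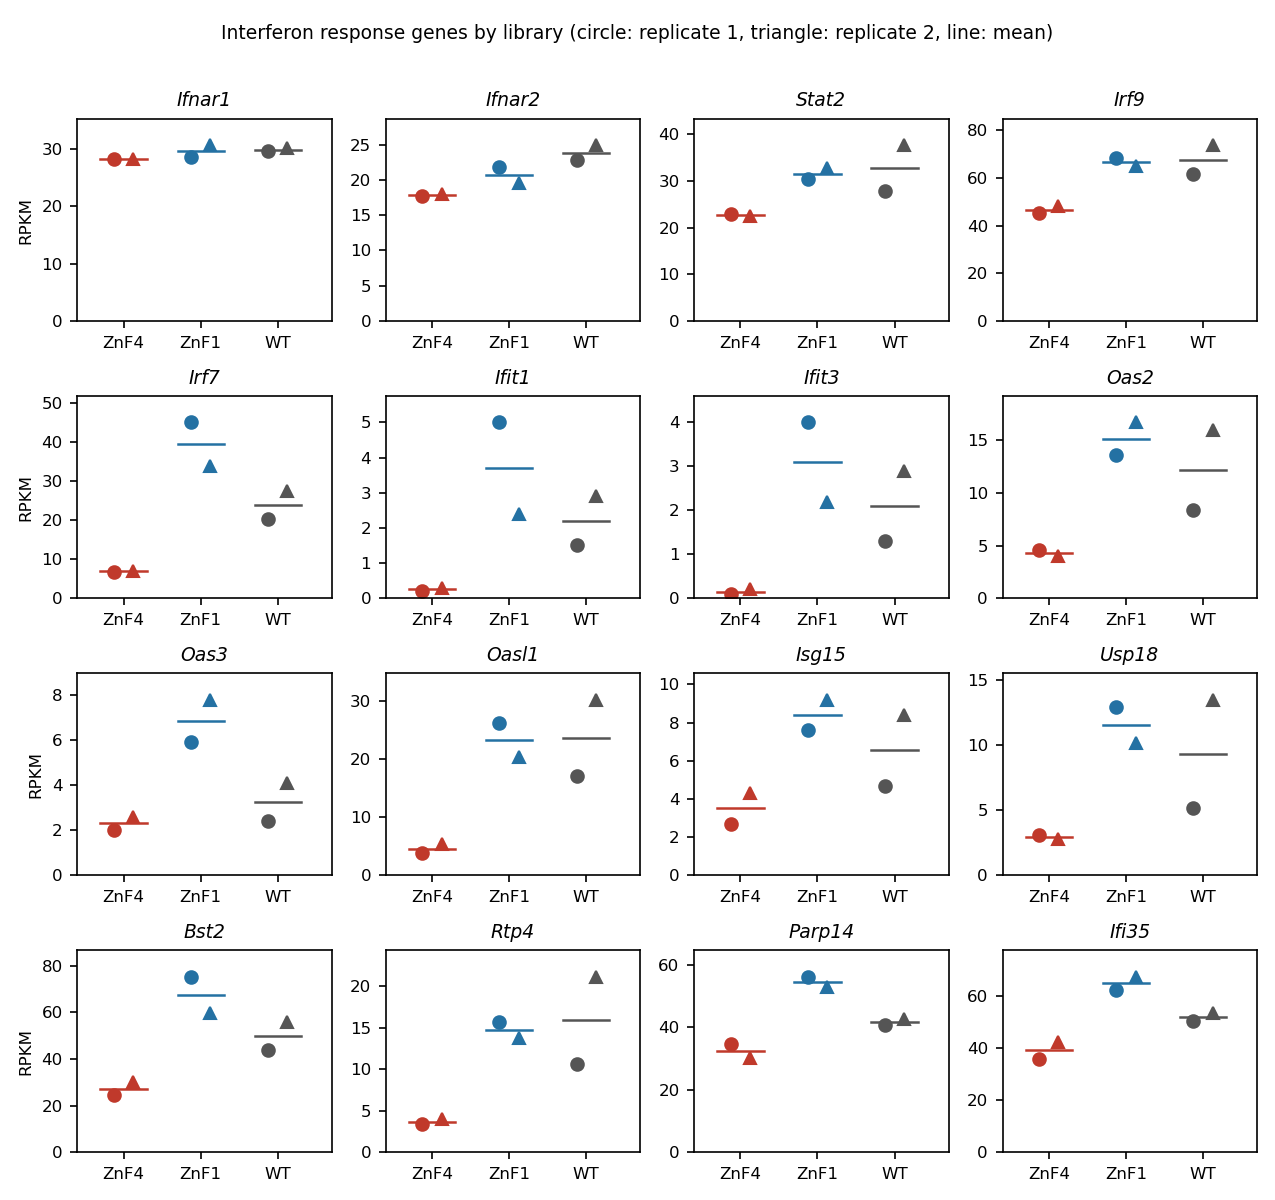
RPKM of 16 of the genes in every library, from 0 upward, with circles for replicate 1, triangles for replicate 2 and lines for the mean of the 2. Ifnar1 is level, between 28.2 and 30.6 RPKM, whereas Irf7, Oasl1, Rtp4 and the Ifit genes have both ZnF4 libraries far below the other 4.

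The IFIT family, whose proteins bind viral RNA and block its translation, had its lowest values in the ZnF4 mutant. Ifit3 had 0.1 and 0.2 RPKM in the ZnF4 mutant, 4.0 and 2.2 in the ZnF1 mutant, against 1.3 and 2.9 in wild type. It fell by 1.93 on the log2 scale against wild type (SE 0.39, adjusted p = 0.0472), a figure that the added 0.5 makes smaller than the ratio of the means, 7.14%. Ifit1 had 0.2 and 0.3 RPKM in the ZnF4 mutant, 5.0 and 2.4 in the ZnF1 mutant, against 1.5 and 2.9 in wild type. Its log2 fold change of -1.80 narrowly missed (adjusted p = 0.0576). Ifit2 had 2.4 and 2.9 RPKM in the ZnF4 mutant, 8.2 and 5.6 in the ZnF1 mutant, against 4.4 and 7.2 in wild type, with a log2 fold change of -0.97 (adjusted p = 0.118). In all 3 genes the ZnF4 libraries lay below the other 4. The levels are low, values were rounded to steps of 0.1, and reads are uncertain between Ifit3 and near-identical copies.

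The OAS family, whose proteins sense double-stranded RNA, had 1 called member of 5 against wild type. Oasl1, an OAS-like protein without synthase activity that represses Irf7 translation in mice, had 3.9 and 5.3 RPKM in the ZnF4 mutant, 26.1 and 20.4 in the ZnF1 mutant, against 17.1 and 30.2 in wild type. It fell by 2.20 against wild type (SE 0.28, adjusted p = 0.0091), to 19.5% of the wild-type mean. Oas2 had 4.6 and 4.0 RPKM in the ZnF4 mutant, 13.6 and 16.7 in the ZnF1 mutant, against 8.4 and 16.0 in wild type, with a log2 fold change of -1.34 that missed (adjusted p = 0.0516). Oas3 had another order. It had 2.0 and 2.6 RPKM in the ZnF4 mutant, 5.9 and 7.8 in the ZnF1 mutant, against 2.4 and 4.1 in wild type, so that ZnF4 and wild type overlapped and the ZnF1 libraries were highest. Oas1a lay between 1.6 and 4.3 RPKM in all libraries and also overlapped. Oasl2 had 3.9 and 4.9 RPKM in the ZnF4 mutant, 8.1 and 8.9 in the ZnF1 mutant, against 5.3 and 10.8 in wild type, a difference that did not pass (adjusted p = 0.263). Similar sequences make the division of reads within this family uncertain.

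Isg15, the ubiquitin-like modifier, and Usp18, the protease that removes it and damps receptor signalling, were lowest in the ZnF4 libraries. Isg15 had 2.7 and 4.3 RPKM in the ZnF4 mutant, 7.6 and 9.2 in the ZnF1 mutant, against 4.7 and 8.4 in wild type. Usp18 had 3.1 and 2.8 RPKM in the ZnF4 mutant, 12.9 and 10.2 in the ZnF1 mutant, against 5.2 and 13.5 in wild type. The wild-type replicates of Usp18 were far apart, and the ZnF4 log2 fold change of -1.37 (SE 0.38) did not pass (adjusted p = 0.113); that of Isg15 was -0.80 (adjusted p = 0.227).

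None of the 4 nucleic acid sensors passed. Zbp1, a sensor of Z-form nucleic acid, had 14.2 and 19.9 RPKM in the ZnF4 mutant, 30.5 and 25.5 in the ZnF1 mutant, against 28.1 and 32.6 in wild type (log2 fold change -0.83, adjusted p = 0.0668). Ddx58, which encodes RIG-I, had 41.3 and 41.3 RPKM in the ZnF4 mutant, 55.1 and 57.9 in the ZnF1 mutant, against 50.5 and 54.6 in wild type (-0.34, adjusted p = 0.174). Dhx58, which encodes LGP2, had 9.2 and 11.4 RPKM in the ZnF4 mutant, 17.6 and 14.9 in the ZnF1 mutant, against 14.2 and 22.8 in wild type (-0.78, adjusted p = 0.132). These 3 had both ZnF4 libraries below the other 4, and none passed. Ifih1, which encodes MDA5, had 1.8 and 1.6 RPKM in the ZnF4 mutant, 1.4 and 1.5 in the ZnF1 mutant, against 1.1 and 1.9 in wild type, which spanned both mutants.

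Of the remaining genes, Rtp4 fell. Rtp4, an interferon-induced restriction factor named for its role as a receptor transporter, had 3.4 and 4.0 RPKM in the ZnF4 mutant, 15.7 and 13.7 in the ZnF1 mutant, against 10.6 and 21.1 in wild type. It fell by 1.89 on the log2 scale against wild type (SE 0.29, adjusted p = 0.0182), and it alone of the 4 was also called without wild-type replicate 1. Bst2, which encodes tetherin, had 24.5 and 30.0 RPKM in the ZnF4 mutant, 75.3 and 59.9 in the ZnF1 mutant, against 43.7 and 56.0 in wild type. As for Irf7, no 2 genotypes of Bst2 overlapped; its log2 fold change of -0.86 against wild type missed (adjusted p = 0.0551). Mx1, a gene of the dynamin-like GTPase family, did not pass by limma in the ZnF4 mutant against wild type (adjusted p = 0.241). It had 6.9 and 5.9 RPKM in the ZnF4 mutant, 13.9 and 12.5 in the ZnF1 mutant, against 7.8 and 16.9 in wild type. Mx2 lay between 4.2 and 8.1 RPKM and Rsad2, which encodes viperin, between 2.6 and 13.5, the highest Rsad2 value being in ZnF1 replicate 2.

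Parp14, a mono-ADP-ribosyltransferase gene, and Ifi35 showed small gaps with tight replicates. Parp14 had 34.6 and 30.2 RPKM in the ZnF4 mutant, 56.1 and 52.7 in the ZnF1 mutant, against 40.8 and 42.7 in wild type. Ifi35 had 35.7 and 42.4 RPKM in the ZnF4 mutant, 62.4 and 67.3 in the ZnF1 mutant, against 50.4 and 53.4 in wild type. Xaf1, a gene linked to apoptosis, had 6.5 and 6.6 RPKM in the ZnF4 mutant, 10.2 and 9.4 in the ZnF1 mutant, against 7.8 and 8.6 in wild type. In these 3 genes the ZnF4 libraries were lowest, the ZnF1 libraries highest and wild type lay between, with no overlap, and none passed against wild type in either mutant.

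Ly6e, Ly6a and the weakest genes had other patterns. Ly6e, a surface protein gene that restricts viral entry, was the most abundant at 887 and 947 RPKM in the ZnF4 mutant, 839 and 641 in the ZnF1 mutant, against 931 and 839 in wild type, where ZnF4 and wild type overlapped. Ly6a, which encodes Sca-1, had 30.8 and 53.4 RPKM in the ZnF4 mutant, 80.4 and 46.3 in the ZnF1 mutant, against 103 and 69.7 in wild type, a log2 fold change of -1.05 with wide replicates (SE 0.34, adjusted p = 0.168). Ifi44 had 0.2 and 0.3 RPKM in the ZnF4 mutant, 3.5 and 1.0 in the ZnF1 mutant, against 0.2 and 0.9 in wild type. Its ZnF1 libraries were above wild type, by 1.31 on the log2 scale with an SE of 0.53 (adjusted p = 0.395). Cxcl10, a chemokine gene, was too low to test, at 0.2 and 0.1 RPKM in the ZnF4 mutant, 0.8 and 0.6 in the ZnF1 mutant, against 0.5 and 0.1 in wild type.

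**Figure D3:**
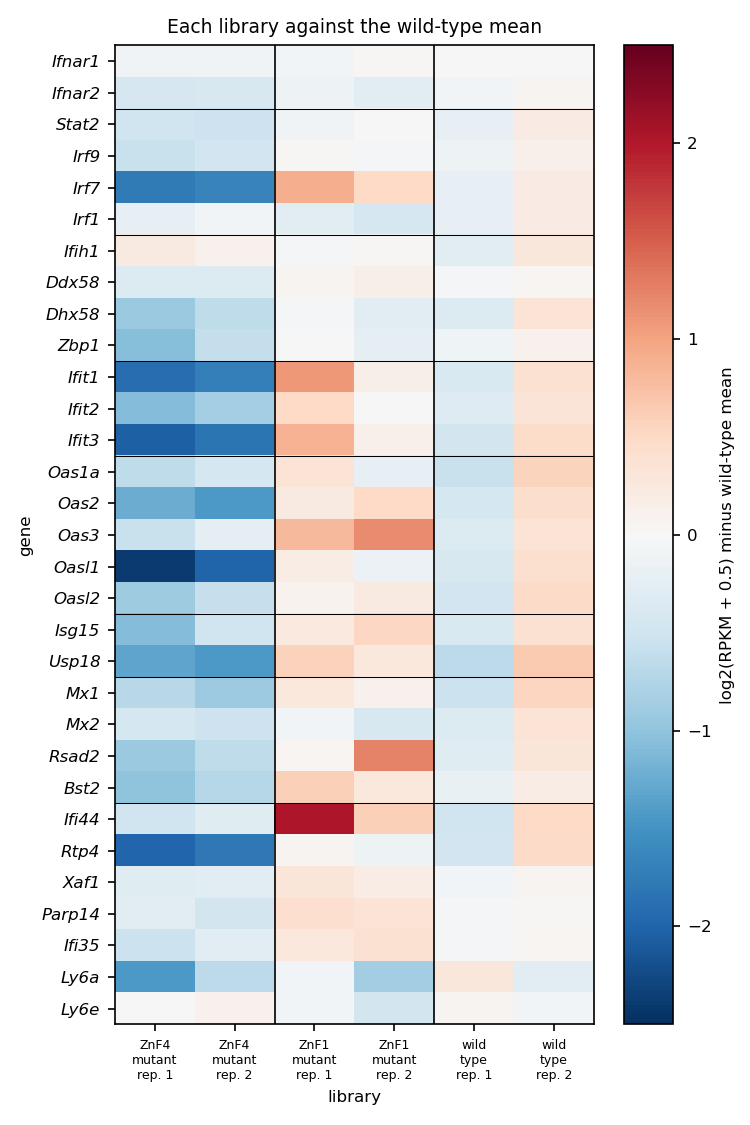
Each tested gene in each library as log2(RPKM + 0.5) minus the mean of the wild-type libraries, in rows ordered by role and on a colour scale from -2.5 to 2.5. Both ZnF4 columns are blue for most rows, and wild-type replicate 1 is below replicate 2 in 29 of 31 rows.

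No interferon response gene passed the test in the ZnF1 mutant. Against wild type, limma called 0 of its 31 genes, where 0.174% of all tested genes were called lower and 0.0969% higher. An unadjusted p under 0.05 was reached by 6 of the 31, all of them higher, and by 6.48% of all tested genes in that direction. The median log2 fold change was 0.15, against -0.00189 over all tested genes, and 19 of 31 were positive. The largest differences were those of Ifi44 (1.31), which passed the filter on low values only through its ZnF1 libraries, Oas3 (211% of the wild-type mean, adjusted p = 0.219) and Irf7 (0.71). The ZnF1 libraries lay above both wild-type libraries in 8 of 31 genes and below both in 3, as 21.1% and 20.3% of all tested genes did. The median was -0.14 when wild-type replicate 1 was left out and 0.42 when replicate 2 was, so its direction rested on single wild-type libraries.

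The direct comparison of the mutants, which shares the ZnF4 libraries with the first comparison, gave more calls. In it 11 of 31 genes were lower in the ZnF4 than in the ZnF1 mutant and 0 were higher, where 2.08% of all tested genes were called lower and 2.69% higher. They were Irf7, Ifit1, Ifit3, Oas2, Oas3, Oasl1, Usp18, Bst2, Rtp4, Parp14 and Ifi35. Irf7 had a log2 fold change of -2.43 (SE 0.19, adjusted p = 0.00205), at 17.4% of the ZnF1 mean. Ifit3 and Ifit1 had -2.43 and -2.42 (SE 0.39 each, adjusted p = 0.0183 and 0.0182), at 4.84% and 6.76% of the ZnF1 mean. Oasl1 (-2.22, adjusted p = 0.00667), Rtp4 (-1.86, adjusted p = 0.017), Usp18 (-1.80, adjusted p = 0.04) and Oas2 (-1.70, adjusted p = 0.0191) followed. Oas3 (-1.39, adjusted p = 0.0326), Bst2 (-1.29, adjusted p = 0.0112), Parp14 (-0.74, adjusted p = 0.0193) and Ifi35 (-0.73, adjusted p = 0.0247) had smaller differences.

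The median log2 fold change of the 31 genes between the mutants was -0.74, against -0.03 over all tested genes, and in 27 of 31 genes both ZnF4 libraries lay below both ZnF1 libraries, as 25.8% of all tested genes did. Ly6e, Irf1 and Ifih1 lay the other way, as 21% of all tested genes did, and Ly6a overlapped. The median was -0.78 without ZnF1 replicate 1 and -0.84 without ZnF1 replicate 2, the library rich in granulocyte RNA. It was -0.74 without one or the other wild-type library, which enters only through the estimate of the spread. The genes called were not the same in these fits as in the main fit. Fitting sex left 11 calls, and 10 of those are named here. Leaving out ZnF4 replicate 1 gave 0 calls by limma (16 at an unadjusted p under 0.05), as did leaving out ZnF4 replicate 2 (19), when a single ZnF4 library is assumed to vary like the other genotypes. Over all tested genes the number called also fell when either ZnF4 library was left out. Without a filter on low values 1 interferon response gene was called, Irf7.

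Wild type itself was not uniform in these genes. Of the 31, 29 were higher in wild-type replicate 2 than in replicate 1, against 47.9% of all tested genes, with a median difference of 0.60 on the log2 scale. Usp18 was 2.60-fold, Oas1a 2.53-fold, Ifit3 2.23-fold and Mx1 2.17-fold higher in replicate 2, whereas Ifnar1 (1.02-fold), Parp14 (1.05-fold) and Ifi35 (1.06-fold) were nearly level. The same median between replicates 2 and 1 was 0.19 in the ZnF4 mutant and -0.15 in the ZnF1 mutant. Set against the wild-type mean, the median log2 level of the 31 genes was -0.70 and -0.52 in ZnF4 replicates 1 and 2, 0.19 and 0.11 in ZnF1 replicates 1 and 2, and -0.30 and 0.30 in wild-type replicates 1 and 2. The wild-type library nearest to the ZnF4 libraries was thus replicate 1, which still lay above both.

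Most markers of plasmacytoid dendritic cells, which make type I interferon, and of NK cells were low. In ZnF1 replicate 2, Ly6c2 reached 13.2 RPKM and the NK cell marker Nkg7 8.9 RPKM. Cox6a2 reached 12.5 RPKM in wild-type replicate 2. Tcf4, on the list for plasmacytoid dendritic cells, was the highest. It had 30.6 and 32.7 RPKM in the ZnF4 mutant, 25.9 and 23.8 in the ZnF1 mutant, against 20.9 and 24.1 in wild type. It was the largest part of the sum of its list in every library. Siglech, the defining receptor of plasmacytoid dendritic cells, was at 2.3 and 1.9 RPKM in the ZnF4 mutant, 5.3 and 7.2 in the ZnF1 mutant, against 1.1 and 4.0 in wild type. The 10 markers of these cells summed to 46.9 and 54.7 RPKM in the ZnF4 mutant, 48.2 and 57.3 in the ZnF1 mutant, against 35.4 and 53.6 in wild type; Klk1 was listed at 0 in wild-type replicate 1. Cox6a2, one of the 10 and the only one called, fell by 2.49 in the ZnF4 mutant against wild type (adjusted p = 0.0353), at 0.9 and 0.8 RPKM in the ZnF4 mutant, 4.0 and 3.0 in the ZnF1 mutant, against 3.9 and 12.5 in wild type. In the same comparison 4 of the 7 tested markers had both ZnF4 libraries above both wild-type libraries, as 23.1% of all tested genes did. They were Lag3 (1.07), Ly6c2 (0.99), Il3ra (0.72) and Tcf4 (0.49), and none of the 4 was called. Cox6a2 had both below, as 27.2% of all tested genes did, and the median of the 7 was 0.49. The 6 NK cell markers summed to 2.3 and 2.7 RPKM in the ZnF4 mutant, 6.6 and 18.9 in the ZnF1 mutant, against 2.7 and 6.4 in wild type; Ncr1 in ZnF4 replicate 1 and Klrb1c in ZnF4 replicate 2 were listed at 0. Of the 13 granulocyte and monocyte markers, 11 lay above both wild-type libraries in both ZnF4 libraries and 12 in both ZnF1 libraries, as 23.1% and 21.1% of all tested genes did, with 0 called by limma (5 and 11 at an unadjusted p under 0.05). The part of these cells in the results was not tested.

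**Figure D4:**
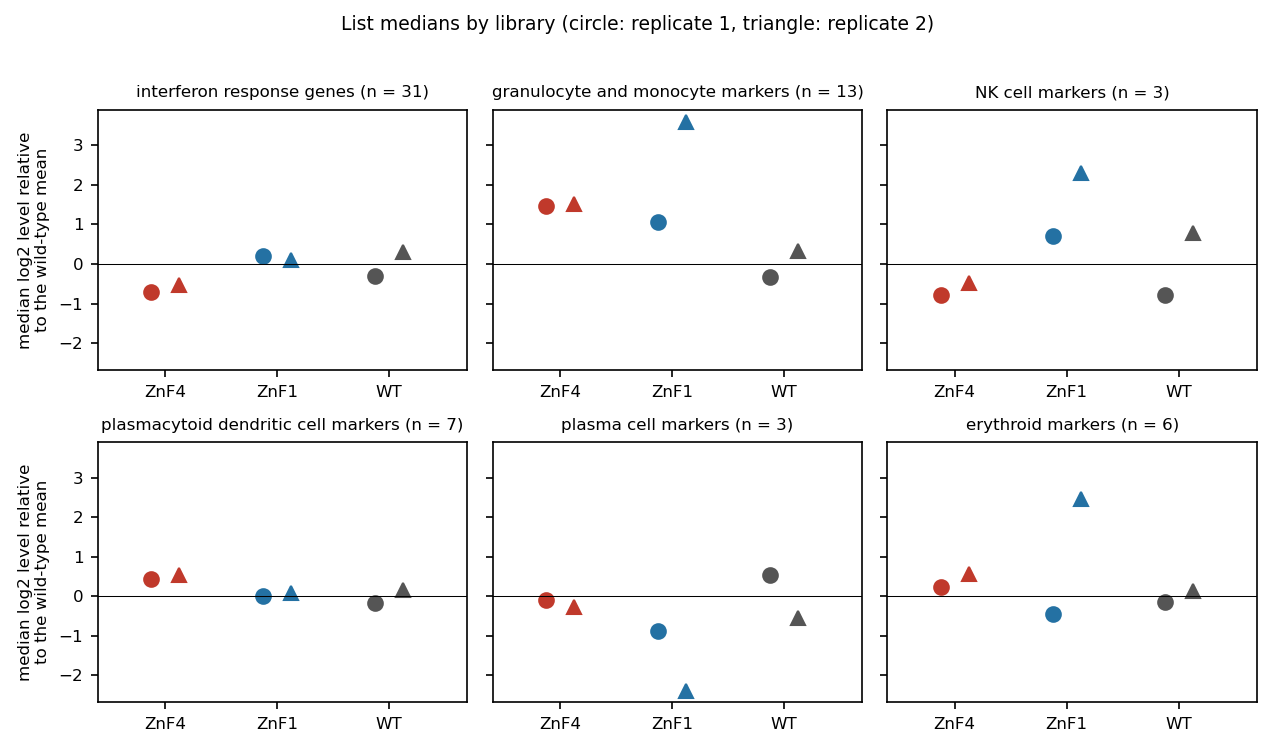
Median log2 level of each list per library, relative to the mean of the wild-type libraries, with circles for replicate 1 and triangles for replicate 2. The interferon response genes are lowest in both ZnF4 libraries (-0.70 and -0.52), while granulocyte and monocyte markers are highest in ZnF1 replicate 2 (3.59).

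The wider pathway was read from a list of 90 further genes, of which 71 were tested. In the ZnF4 mutant 7 of 71 fell against wild type and 0 rose, with a median of -0.11, and 64 did not pass; over all tested genes 1.41% were called lower and 1.78% higher, with a median of -0.02. All 7 were among the 41 tested interferon-induced genes of the list. They were Cmpk2, a mitochondrial nucleotide kinase gene next to Rsad2 (-1.42), Ifi27l2a (-1.38), Slfn2, a Schlafen family gene (-1.29), Sp100, a nuclear body gene (-0.93), Irgm1, an immunity-related GTPase gene (-0.92), Trim25, the ubiquitin ligase gene that assists RIG-I (-0.68), and Dtx3l, a ubiquitin ligase gene (-0.67). Their adjusted p-values lay between 0.00821 and 0.0496. Slfn2 had 52.0 and 66.3 RPKM in the ZnF4 mutant, 164 and 143 in the ZnF1 mutant, against 147 and 143 in wild type. Sp100 had 111 and 107 RPKM in the ZnF4 mutant, 215 and 216 in the ZnF1 mutant, against 199 and 218 in wild type. In both genes the replicates were close and the ZnF4 pair lay below the other 4 libraries. The number called in the list rested on single libraries, as it did over all tested genes. Leaving out ZnF4 replicate 1 gave 0 calls by limma, with 25 genes at an unadjusted p under 0.05, and so did leaving out ZnF4 replicate 2 (20) or wild-type replicate 2 (18). It was 1 without wild-type replicate 1 and 12 without one or the other ZnF1 library.

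The upstream steps had no called gene against wild type in either mutant. Jak1 had 88.0 and 105 RPKM in the ZnF4 mutant, 146 and 123 in the ZnF1 mutant, against 142 and 103 in wild type, and Irf3, the latent factor of interferon induction, lay between 37.1 and 45.3 RPKM in every library. Tyk2 had 31.8 and 30.0 RPKM in the ZnF4 mutant, 22.1 and 20.3 in the ZnF1 mutant, against 23.8 and 25.2 in wild type. Its ZnF4 libraries were the highest, and it was higher in the ZnF4 than in the ZnF1 mutant (0.53, adjusted p = 0.0487). Of 9 interferon ligand genes, 7 were listed at 0 in every library. Ifng, the gene of interferon gamma, had 0.3 and 0.2 RPKM in the ZnF4 mutant, 0.3 and 0 in the ZnF1 mutant, against 1.1 and 1.0 in wild type, and Ifnk was above 0 in ZnF1 replicate 2 alone (0.2). Depth is unknown, so a value of 0 sets no limit.

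Between the mutants 12 of the 71 wider pathway genes were lower and 2 higher in the ZnF4 than in the ZnF1 mutant, where 2.08% of all tested genes were called lower and 2.69% higher. Beside the 7 above, the lower genes included Slfn1 (-2.10), Lgals3bp, a secreted glycoprotein gene (-1.63), the guanylate-binding protein gene Gbp3 (-1.02) and Irgm2 (-0.74). Slfn1 had 1.7 and 1.7 RPKM in the ZnF4 mutant, 5.5 and 14.3 in the ZnF1 mutant, against 2.9 and 3.3 in wild type. Its ZnF1 replicate 2 was the highest, and without that library the difference was -1.45. Nlrc5, the transactivator gene of MHC class I, was higher in the ZnF4 mutant (0.94, adjusted p = 0.0235). Again the number called in the list rested on single libraries, as it did over all tested genes. Limma made 0 calls in the list when ZnF4 replicate 1 was left out, with 30 genes at an unadjusted p under 0.05, and 0 when ZnF4 replicate 2 was (26), and the count was 7 without one or the other wild-type library and 10 without one or the other ZnF1 library, of which 8 (without replicate 1) and 9 (without replicate 2) were among the 14. In the ZnF1 mutant against wild type 0 of 71 were called by limma, with a median of 0.05. By the same test 9 were higher and 2 lower at an unadjusted p under 0.05. Over all tested genes these shares were 6.48% and 5.45%. Without ZnF1 replicate 1 the number called rose, in the list and over all tested genes alike. The proteasome and peptide transporter genes that interferon also induces, Psmb8, Psmb9, Psmb10 and Tap1, had log2 fold changes between 0.11 and 0.18 in the ZnF4 mutant against wild type and none passed; they were singled out after their values were seen, as were the ligand genes.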

How the data were processed

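RNA of sorted bone marrow IgM+ B cells was measured by poly(A) RNA-seq in 6 libraries, 2 for each of 3 genotypes. The authors deposited RPKM values per RefSeq transcript (26531 with values), rounded to 0.1, with a transcript length column. Per the submitters' processing notes, TopHat, bedtools and the mm9 build were used; versions and the counting rule, strand included, are not given in the sources used here. Read depth is unknown: low RPKM values did not give whole reads, so no counting interval is given, and precision rests on 2 libraries per genotype.

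The transcript with the highest mean stood for each of 22098 gene names. Names with a mean RPKM of at least 1 (10322) were fitted as log2(RPKM + 0.5) with limma 3.58.1 in R 4.3.3, all 3 genotypes together, with an intensity trend in the variance. P-values were two-sided and Benjamini-Hochberg adjusted over all tested names, with 0.05 as the limit for a call. The added 0.5 makes the fold changes of low genes smaller. The comparisons share libraries. The fit was tested on simulated data, with 67, 67 and 66 genes changed 2-fold, 4-fold and 8-fold. Of the 2-fold changes it recovered 85.1% (ZnF4 against wild type), 85.1% (ZnF1 against wild type) and 71.6% (ZnF4 against ZnF1). In the same order 21, 24 and 6 unchanged genes were called falsely, out of 10322 simulated and beside at most 67, 67 and 66 true calls. Against wild type the false share of the calls was thus above the 0.05 limit. Noise was drawn for each gene on its own from the fitted SD. Shifts shared by many genes, as between the wild-type libraries, were not simulated, so these shares may not hold for the interferon response genes. The genes and lists were chosen with earlier results of these data known. All 32 genes are accounted for. Of the wider list, called genes (at most 10 per comparison, smallest p first) and Jak1, Tyk2 and Irf3 are named; 1 further gene of the rule is not reported here. Alternatives changed the pseudocount, filter, scaling, row per name, variance trend and libraries fitted, or added a replicate block or a term for sex. Promoters came from RefSeq (GRCm38.p6).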

Additional observations from a re-analysis of the deposited data

Results flagged for a closer look

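The difference between the ZnF4 and ZnF1 mutants, each against the same wild-type libraries, is the direct contrast of the mutants, and 24 of the genes named here passed its test by limma. Among the interferon response genes the log2 differences, ZnF4 minus ZnF1, were -2.43 for Irf7, -2.42 for Ifit1, -2.43 for Ifit3, -2.22 for Oasl1, -1.86 for Rtp4 and -1.80 for Usp18. They were -1.70 for Oas2, -1.39 for Oas3, -1.29 for Bst2, -0.74 for Parp14 and -0.73 for Ifi35. In the wider list they were -2.10 for Slfn1, -1.63 for Lgals3bp, -1.38 for Slfn2, -1.26 for Cmpk2, -1.22 for Ifi27l2a and -1.03 for Irgm1. They were -1.02 for Gbp3, -0.98 for Sp100, -0.74 for Irgm2, -0.71 for Dtx3l and -0.59 for Trim25. Tyk2 (0.53) and Nlrc5 (0.94) had the opposite sign.

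In 2 further interferon response genes both ZnF4 libraries lay below wild type and both ZnF1 libraries above it, and the difference missed the threshold. They were Ddx58 (-0.45, adjusted p = 0.0728) and Xaf1 (-0.55, adjusted p = 0.0718).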

How the results depend on the processing

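The main counts were 4, 0 and 11 interferon response genes called in the ZnF4 mutant against wild type, the ZnF1 mutant against wild type and the ZnF4 against the ZnF1 mutant. The first was 0 without a filter on low values, 8 when only the compared genotypes were fitted and 2 with a term for sex. The last was 1 without a filter. Leaving out 1 library gave 0 to 8, 0 to 0 and 0 to 11. The medians were then -0.93 to -0.37, -0.14 to 0.42 and -0.95 to -0.74. Wider pathway counts (7, 0 and 14) were 1 and 2 for the ZnF4 comparisons with wild type and with ZnF1 without a filter, 13 and 7 with only the compared genotypes and 4 and 9 without the variance trend. The comparison with wild type gave 2 with a term for sex. Leaving out 1 library gave 0 to 12, 0 to 4 and 0 to 10. Over all tested genes the counts were 330, 28 and 493, and they were 594, 0 and 249 with only the compared genotypes, 171 and 0 against wild type with a term for sex, 104 and 327 for the ZnF1 comparison with wild type and the ZnF4 comparison with ZnF1 without a filter, and 13 for ZnF1 against wild type after quantile normalization. The counts of 0 had 1053 and 863 genes at an unadjusted p under 0.05 by limma. Leaving out 1 library gave 0 to 591, 0 to 512 and 0 to 814. Leaving out 1 library, the fold change of Oas1a in the ZnF4 mutant against wild type ran from -1.10 to 0.029, the last without wild-type replicate 2. In the ZnF1 mutant, ranges crossed 0 without wild-type replicate 1 for Oas2 (-0.083 to 0.81), Isg15 (-0.0059 to 0.77) and Usp18 (-0.23 to 1.07). The main fold changes of these genes lay beyond 1 SE of 0. Ranges of other genes, within 1 SE in the main fit, crossed 0 too. Examples are Irf1 in the ZnF4 mutant (-0.33 to 0.061) and Ifit2 in the ZnF1 mutant (-0.080 to 0.57), against wild type. The causes were not tested. Of 794 values of named genes per comparison over all alternatives, 692, 755 and 663 kept direction and side of the threshold, 70, 0 and 120 lost a call, 22, 1 and 10 gained one, and 9, 35 and 1 changed sign while within 1 SE of 0. With a replicate block the counts were 4, of which 3 were shared, 0 and 13. The deviations of same-numbered libraries correlated at 0.208 (ZnF4 and ZnF1), -0.0327 (ZnF4 and wild type) and 0.28 (ZnF1 and wild type), so the numbers were not taken to pair the libraries. Depth is unknown, so no limit from counting can be given.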
